A study of Mus musculus with 4 samples.

Results

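The Rab genes encode small GTPases of the Ras superfamily that direct traffic between the membrane compartments of the cell. The genes described here carry the symbol Rab followed by a number, with or without a letter, and were selected on their measured level, a mean of at least 0.5 FPKM over the 4 libraries of the series. FPKM counts the fragments of a gene and divides them by transcript length and by the size of the library. Of 57 symbols of this form among the 37305 rows of the deposited table, 39 met that minimum, and the selection uses no difference between the groups. The nearest genes above the minimum were Rab23 (mean 1.17 FPKM) and Rab43 (1.20 FPKM), and the nearest below it Rab27a (0.446 FPKM) and Rab32 (0.422 FPKM). The other symbols below the minimum are not described further.

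The libraries were made from mRNA-enriched RNA of mouse muscle, labelled GTN muscle, from strain C57BL/6. The genotype is given as MCK-TD for libraries A and B and as Con-TD for libraries F and G, so each group holds 2 libraries. The labels spell out none of these abbreviations, name no altered gene, promoter or treatment, and give no age or sex. Nothing in them ties a library to an animal of its own. The p-values therefore cover the spread among these libraries alone, which may be technical, and genotype cannot be told apart from any batch that was not recorded.

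A Rab protein cycles between a GTP-bound form on a membrane and a GDP-bound form that is extracted into the cytosol. Exchange factors load it with GTP, effectors bind the loaded form to move, tether or fuse vesicles, and GTPase-activating proteins switch it off. In muscle, Rab proteins are best known for carrying vesicles of the glucose transporter Glut4 to the surface in response to insulin and contraction, for recycling receptors, and for delivering endosomes and autophagosomes to lysosomes.

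Muscle fibre markers were abundant in all 4 libraries. The 10 muscle fibre markers summed to 52596 and 59030 FPKM in MCK-TD and to 107190 and 99420 FPKM in Con-TD. Limma called 9 of the 10 lower in MCK-TD (90%, beside 6.45% of all rows). The 14 macrophage markers in the table went the other way, with summed levels of 228 and 191 FPKM in MCK-TD and 41.9 and 61.7 FPKM in Con-TD. Of the 11 macrophage markers tested, 8 rose (72.7%, beside 24.3% of all rows), and none of the 14 was at 0 in all libraries. Among the 8 was Cd68, at 22.4 and 17.6 FPKM in MCK-TD and 1.70 and 2.53 FPKM in Con-TD. Mpeg1, for one, at 6.11 and 4.44 FPKM in MCK-TD, had a Con-TD mean of 0.354 FPKM, below the test's minimum mean of 1 FPKM. It was tested only through its MCK-TD levels, so its direction follows in part from the filter. The defining lymphocyte markers were near 0, with summed levels of at most 0.674 FPKM. Limma called 2 of 7 endothelial and 1 of 7 fibro-adipogenic markers lower (28.6% and 14.3%, beside 6.45% of all rows). The change was positive for 0 of the 7 endothelial and 1 of the 7 fibro-adipogenic markers. Limma called none of the 3 tested markers each of neutrophils, adipocytes and satellite cells. The 5 adipocyte markers still summed to 13.5 and 18.4 FPKM in MCK-TD and to 38.1 and 139 FPKM in Con-TD, so the Con-TD libraries differed widely. In bulk tissue, more cells of a type and more RNA per cell cannot be told apart, and the part of macrophages or other cells in the Rab levels was not tested. The FPKM sum of a library was 1899175 and 2068375 in MCK-TD and 2725173 and 2762335 in Con-TD, with 63.1% and 65.0% of it in mitochondrial rows in MCK-TD and 72.1% and 73.7% in Con-TD. The depth of a library relative to Con-TD F was estimated from the most frequent FPKM ratio among rows of very low FPKM, and lay between 0.933 and 1. It was not counted from reads, and the absolute depth is unknown.

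Many Rab transcripts were higher in MCK-TD muscle, among them Rab13, Rab40b, Rab11a and Rab5a, while the abundant Rab7 was among the few below its Con-TD level. All 39 genes passed the filter of the test, a mean of at least 1 FPKM. Limma's moderated test on log2(FPKM + 1), adjusted by the Benjamini-Hochberg method over all 12474 rows, called 18 of the 39 genes higher, with adjusted p between 0.00574 and 0.0441. Over all rows tested the share called higher was 24.3%. Limma called 0 of the 39 lower, where the share over all rows was 6.45%, and 1 gene, Rab7, was lower at an unadjusted p under 0.05. The median log2 change of the 39 genes, MCK-TD minus Con-TD, was 0.47, beside 0.22 over all rows, and 28 of the 39 lay above that all-row median. Rab31 and Rab15, which count among the 18, had Con-TD means of 0.916 and 0.368 FPKM and reached the minimum of the test only through their MCK-TD levels, so their direction follows in part from the filter. A test of the genes as a set was not made.

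All rows together leaned upward on the deposited scale, and the number of calls depended on it. After median of ratios scaling, which brought the all-row median to 0.01, limma called 9 Rab genes higher and 1 lower, beside 14.7% and 12.1% of all rows. Quantile normalization gave 8 higher and 1 lower, beside 12.7% and 13.4% of all rows. Scaling each library to its sum without mitochondrial rows, small RNA rows and the 20 most abundant other rows gave 11 higher and 0 lower, beside 17.9% and 9.08%. The 8 genes called higher on all 4 scales were Rab13, Rab40b, Rab11a, Rab5a, Rab20 and Rab40c, together with Rab31 and Rab15, to which the limit on the filter applies. Another 7 (Rab21, Rab8b, Rab8a, Rab7l1, Rab22a, Rab18 and Rab6) were called on the deposited scale alone, and Rab24 was the gene called lower by median of ratios and by quantile normalization. The change was positive on all 4 scales for 26 genes and negative on all 4 for 8. Its sign differed between scales for Rab28, Rab11b, Rab12, Rab4a and Rab34. On the deposited scale it was positive for 31 of the 39 genes, beside 8179 of all 12474 rows. On the other 3 scales, in the order above, it was positive for 27, 26 and 28 genes, beside 6299, 5792 and 7091 rows.

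Leaving out 1 library leaves a group with a single library, which is assumed to vary like the other group, and 1 residual degree of freedom. With Con-TD F, Con-TD G, MCK-TD A or MCK-TD B left out, limma called 62, 90, 162 and 123 of all rows, and 0 Rab genes in each case, against 3837 rows called with all 4 libraries. The 18 genes called higher with all 4 libraries kept the sign of their change in each of these fits.

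**Figure D1:**
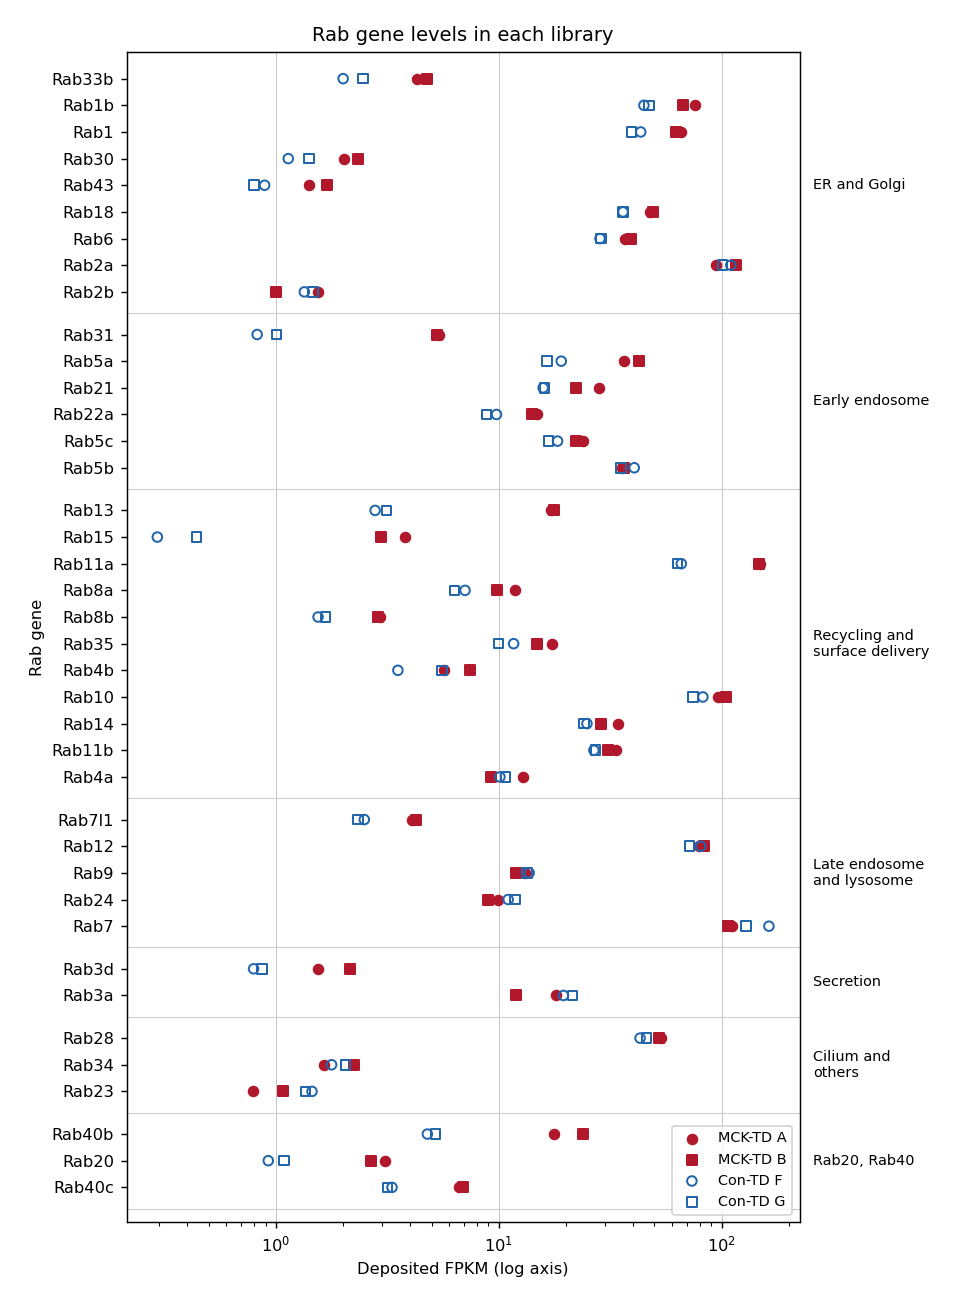
FPKM of each of the 39 Rab genes in every library, on a log axis, with 1 point per library and the MCK-TD libraries set apart from the Con-TD libraries by colour. Rab11a stands at 149 and 147 FPKM in MCK-TD, above both Con-TD libraries, and Rab7 at 111 and 107 FPKM in MCK-TD, below both.

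The levels of the genes spanned from 127 FPKM for Rab7 to 1.17 FPKM for Rab23, as means over the 4 libraries. In MCK-TD A and B the most abundant Rab transcript was Rab11a, with 12.6% and 12.4% of the summed Rab FPKM. In Con-TD F and G it was Rab7, with 17.1% and 14.5%, and Rab11a was the fifth. Calls were spread over the range of levels. Of the 13 most abundant genes 6 were called higher, of the 13 in the middle 5, and of the 13 least abundant 7. The share called higher over all rows was 24.3%. No gene of these level classes was called lower.

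The groups did not overlap for 33 genes, 28 of them higher and 5 lower in MCK-TD, while over all rows tested 50.7% were higher without overlap and 21.3% lower. Rab31, Rab15, Rab3d and Rab43 count among the 28 and Rab23 among the 5. Each of them reached the minimum of the test only through the group where it is high. Their direction therefore follows in part from the filter. The median change of the 39 genes lay between 0.44 and 0.50 for each pairing of an MCK-TD with a Con-TD library.

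**Figure D2:**
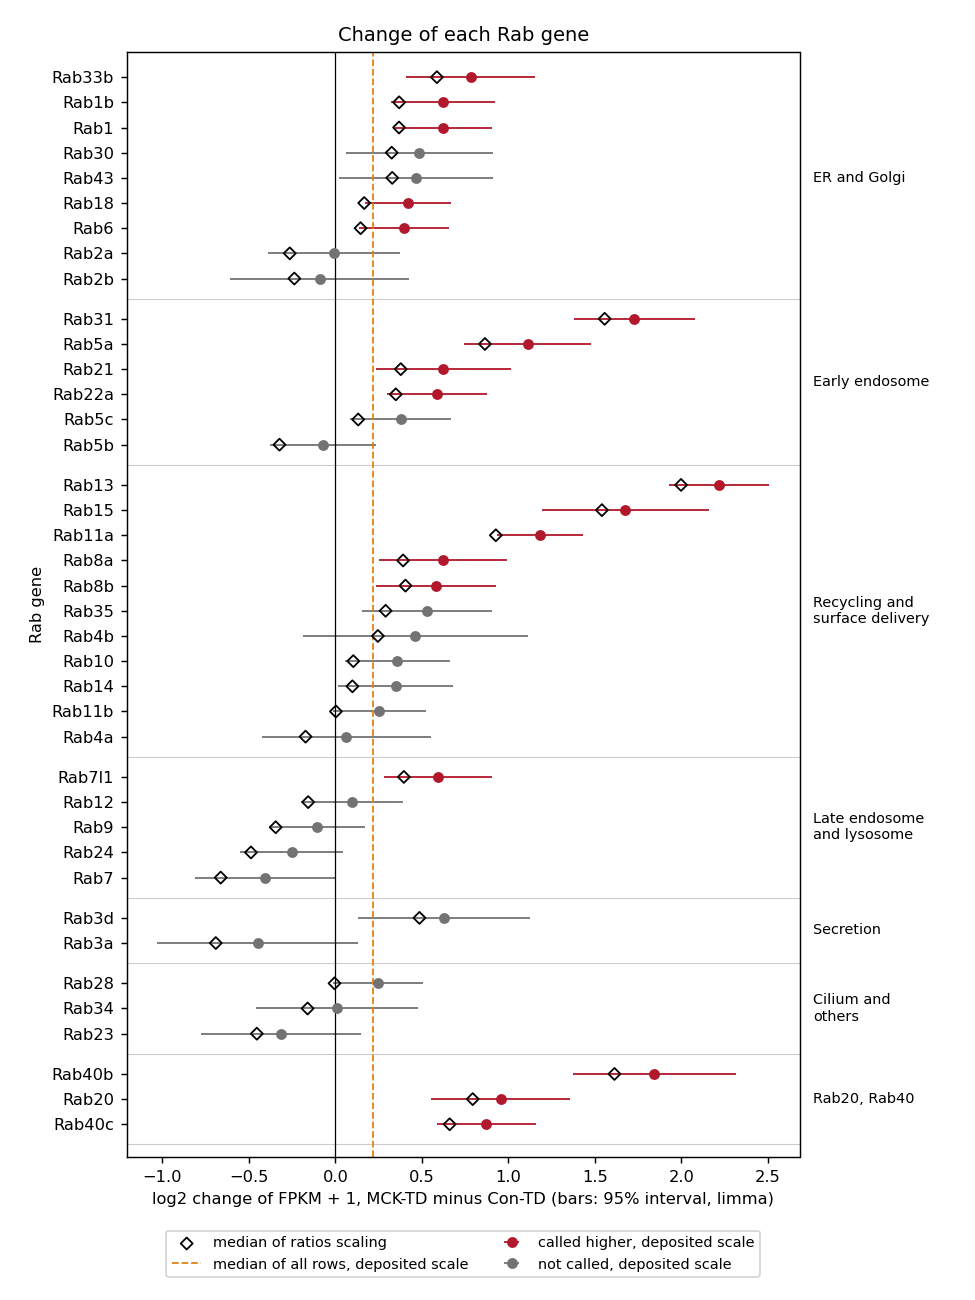
Log2 change of FPKM + 1 of each Rab gene, MCK-TD minus Con-TD, with limma's 95% interval, grouped by role, with filled points coloured where called higher on the deposited scale. Open diamonds give the change after median of ratios scaling and the dashed line the all-row median of 0.22, and Rab13, at 2.22, has the highest change.

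Of the 9 Rab genes of the endoplasmic reticulum and Golgi, 5 were called higher (55.6%, beside 24.3% of all rows) and none lower on the deposited scale. Their median log2 change was 0.47. After median of ratios scaling 1 was called higher (11.1%, beside 14.7% of all rows), and after quantile normalization 0 (beside 12.7%). Scaling without mitochondrial, small RNA and the 20 most abundant other rows gave 3 (33.3%, beside 17.9%). Rab1b, which with Rab1 drives vesicles out of the endoplasmic reticulum toward the Golgi, had 76.0 and 67.2 FPKM in MCK-TD and 44.8 and 47.4 FPKM in Con-TD (log2 change 0.62, SE 0.11, limma adjusted p = 0.0239). Rab1 (the gene also named Rab1a) had 65.6 and 62.7 FPKM in MCK-TD and 43.4 and 39.4 FPKM in Con-TD (0.62, SE 0.10, limma adjusted p = 0.0207). Both genes were higher in each MCK-TD library than in either Con-TD library, by 1.55-fold in the means. After median of ratios scaling their limma adjusted p was 0.0761 and 0.0788. The ratio of Rab1b to Rab1, which does not depend on the scaling of a library, was 1.16 and 1.07 in MCK-TD and 1.03 and 1.20 in Con-TD, so it overlapped between the groups.

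Rab2a, which acts between the endoplasmic reticulum and the Golgi, was more abundant than either Rab1 gene and had overlapping groups, at 94.6 and 116 FPKM in MCK-TD and 110.0 and 101 FPKM in Con-TD. Its log2 change was -0.01 with a 95% interval from -0.39 to 0.38 (limma adjusted p = 0.970). Its paralog Rab2b had 1.55 and 1.001 FPKM in MCK-TD and 1.34 and 1.47 FPKM in Con-TD, also overlapping. The changes of both Rab2 genes were negative on all 4 scales.

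Rab33b, a Golgi Rab that also binds the autophagy protein Atg16l1, rose to 4.32 and 4.78 FPKM in MCK-TD, against 2.01 and 2.46 FPKM in Con-TD, a 2.04-fold difference of the means (log2 change 0.78, SE 0.14, limma adjusted p = 0.0231). It was called on 3 of the 4 scales and had a limma adjusted p of 0.0521 after quantile normalization. Rab18, of the endoplasmic reticulum and lipid droplets, averaged 48.6 ± 1.07 FPKM in MCK-TD and 36.1 ± 0.00445 FPKM in Con-TD (SD, n = 2 each, limma adjusted p = 0.0360). Rab6, of traffic at the Golgi, averaged 38.0 ± 1.61 FPKM in MCK-TD and 28.6 ± 0.169 FPKM in Con-TD (limma adjusted p = 0.0441). Neither was called on another scale. The Golgi genes Rab30 and Rab43 had means of 2.19 and 1.55 FPKM in MCK-TD and 1.28 and 0.844 FPKM in Con-TD. Their groups did not overlap, and neither gene was called (limma adjusted p = 0.0831 and 0.1). The Con-TD mean of Rab43 lay below the minimum of the test, so its direction follows in part from the filter.

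Of the 6 Rab genes of the early endosome, 4 were called higher (66.7%, beside 24.3% of all rows), with a median log2 change of 0.61. On each other scale 2 were called higher, Rab5a and Rab31 (33.3%, beside 12.7% to 17.9% of all rows). Rab31 counts in each of these shares, and the limit on the filter given above applies to it. Rab5a, whose product recruits the machinery that fuses incoming vesicles with early endosomes, had 36.7 and 42.7 FPKM in MCK-TD and 19.1 and 16.5 FPKM in Con-TD. The groups were far apart beside the spread within them, 2.23-fold in the means (log2 change 1.11, SE 0.14, limma adjusted p = 0.0124), and the gene was called on all 4 scales.

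The other 2 genes of the Rab5 family were closer between the groups. Rab5b had 35.6 and 36.3 FPKM in MCK-TD and 40.6 and 35.4 FPKM in Con-TD, with overlapping groups (log2 change -0.07, 95% interval -0.38 to 0.23, limma adjusted p = 0.647). Rab5c had 23.95 and 22.3 FPKM in MCK-TD and 18.4 and 16.7 FPKM in Con-TD, without overlap but not called (log2 change 0.38, limma adjusted p = 0.0637). Rab5a was therefore 1.03 and 1.17 times the level of Rab5b in MCK-TD, and 0.471 and 0.467 times in Con-TD. Rab5c was 0.672 and 0.612 times the level of Rab5b in MCK-TD, and 0.453 and 0.473 times in Con-TD.

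Rab31, which carries cargo between the trans-Golgi network and endosomes, rose to 5.38 and 5.29 FPKM in MCK-TD, against 0.826 and 1.01 FPKM in Con-TD, 5.83-fold in the means (log2 change 1.73, SE 0.13, limma adjusted p = 0.00756). Its close relative Rab22a, of early endosomal sorting, averaged 14.5 ± 0.483 FPKM in MCK-TD and 9.30 ± 0.680 FPKM in Con-TD (SD, n = 2 each, limma adjusted p = 0.0245). The ratio of Rab31 to Rab22a was 0.364 and 0.375 in MCK-TD and 0.0844 and 0.114 in Con-TD. Rab21, known for the uptake and recycling of integrins, had 28.2 and 22.3 FPKM in MCK-TD and 15.8 and 16.04 FPKM in Con-TD (log2 change 0.62, SE 0.14, limma adjusted p = 0.0404). It had non-overlapping groups but was called on the deposited scale only, with a limma adjusted p of 0.130 after median of ratios scaling.

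Promoters of the genes were read from RefSeq windows of 250 bases before to 50 after a gene's start on build GRCm38.p6, which is not the build of the deposited values. Of the 39 genes 35 had a window, 46 windows in all, among 32851 in the table. Rab1, Rab6 and Rab7l1 stand there as Rab1a, Rab6a and Rab29. The letters CACGTG, the core of the E-box, were found on both strands together in 5 of the 46 windows (10.9%) and in 7.15% of all windows. The longer form with GT before it and AC after it, known as the CLEAR element to which factors of the Tfeb family bind at genes of lysosomes and autophagy, contains that core and was found in 3 of the 46 windows (6.52%) and in 0.326% of all. These 3 belong to Rab5a, Rab21 and Rab24. The longer form was thus found in 2 of the 17 genes called higher that had a window and in 1 of the other 18. Rab21 was called on the deposited scale only, and Rab24 was called lower after median of ratios scaling and after quantile normalization. The 3 windows are shown because the longest motif searched occurs in them, in capitals. It begins 97 bases before the start of Rab5a, 32 bases before that of Rab21 and at the start of Rab24. A match describes letters in these windows and is not evidence of binding.
Rab5a, chr17:53478984-53479283, plus strand: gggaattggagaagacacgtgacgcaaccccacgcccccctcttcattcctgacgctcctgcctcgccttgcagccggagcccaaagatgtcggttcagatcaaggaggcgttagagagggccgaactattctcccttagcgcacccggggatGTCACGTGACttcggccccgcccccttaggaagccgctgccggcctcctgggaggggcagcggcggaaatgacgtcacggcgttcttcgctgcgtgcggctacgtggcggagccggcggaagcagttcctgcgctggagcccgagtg
Rab21, chr10:115315542-115315841, minus strand: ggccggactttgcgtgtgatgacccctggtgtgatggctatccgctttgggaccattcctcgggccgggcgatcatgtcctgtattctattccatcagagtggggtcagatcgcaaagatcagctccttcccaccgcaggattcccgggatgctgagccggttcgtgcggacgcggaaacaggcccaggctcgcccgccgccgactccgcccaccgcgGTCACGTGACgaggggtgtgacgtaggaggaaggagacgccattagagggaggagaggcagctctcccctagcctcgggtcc
Rab24, chr13:55321931-55322230, minus strand: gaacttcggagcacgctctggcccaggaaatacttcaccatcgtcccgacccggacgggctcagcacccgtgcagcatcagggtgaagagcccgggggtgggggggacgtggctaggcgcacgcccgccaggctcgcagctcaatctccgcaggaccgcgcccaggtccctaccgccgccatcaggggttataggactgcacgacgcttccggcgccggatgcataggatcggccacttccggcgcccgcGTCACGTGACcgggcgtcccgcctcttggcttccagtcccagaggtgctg

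Of the 11 Rab genes of recycling and delivery to the surface, 5 were called higher (45.5%, beside 24.3% of all rows), with a median log2 change of 0.53. On each other scale 3 were called higher, Rab13, Rab11a and Rab15 (27.3%, beside 12.7% to 17.9% of all rows). Rab15 counts in each of these shares, and the limit on the filter given above applies to it. Rab13, which in epithelia acts in the delivery of junction proteins and in cultured rat muscle cells in that of Glut4, had the highest change of the 39 genes. It had 17.2 and 17.7 FPKM in MCK-TD and 2.79 and 3.14 FPKM in Con-TD, 5.88-fold in the means (log2 change 2.22, SE 0.11, limma adjusted p = 0.00574). Rab8a, its relative in surface delivery, had 11.9 and 9.85 FPKM in MCK-TD and 7.07 and 6.32 FPKM in Con-TD (log2 change 0.62, SE 0.14, limma adjusted p = 0.0362). Rab13 thus stood above Rab8a in both MCK-TD libraries, at 1.45 and 1.79 times its level, and below it in both Con-TD libraries, at 0.395 and 0.497 times. Rab8b averaged 2.90 ± 0.0487 FPKM in MCK-TD and 1.61 ± 0.0856 FPKM in Con-TD (SD, n = 2 each, limma adjusted p = 0.0362), and its ratio to Rab8a overlapped between the groups. Rab8a and Rab8b were called on the deposited scale only.

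Rab11a, the main Rab of recycling endosomes, had 149 and 147 FPKM in MCK-TD and 66.0 and 63.3 FPKM in Con-TD, 2.29-fold in the means (log2 change 1.18, SE 0.09, limma adjusted p = 0.00778). Its paralog Rab11b had 33.6 and 31.0 FPKM in MCK-TD and 26.7 and 27.2 FPKM in Con-TD, without overlap but not called (log2 change 0.25, 95% interval -0.02 to 0.52, limma adjusted p = 0.124). The ratio of Rab11a to Rab11b was 4.42 and 4.74 in MCK-TD and 2.47 and 2.33 in Con-TD. Because the paralogs parted in this way, their promoter windows are shown, with the letters GGGCGG on either strand, the GC box to which Sp1 binds, in capitals. The Rab11a window held 3 such boxes, beginning 243 and 64 bases before the start and 6 bases after it, and the Rab11b window held none of the 5 motifs searched. The GC box was found in 34 of the 46 Rab windows (73.9%) and in 35.7% of all windows. It was found in 14 of the 17 genes called higher that had a window and in 15 of the other 18. Rab5a and Rab5b, which also differed in their change, both had it. Any part of the box in the levels of the Rab11 genes was not tested.
Rab11a, chr9:64737707-64738006, minus strand: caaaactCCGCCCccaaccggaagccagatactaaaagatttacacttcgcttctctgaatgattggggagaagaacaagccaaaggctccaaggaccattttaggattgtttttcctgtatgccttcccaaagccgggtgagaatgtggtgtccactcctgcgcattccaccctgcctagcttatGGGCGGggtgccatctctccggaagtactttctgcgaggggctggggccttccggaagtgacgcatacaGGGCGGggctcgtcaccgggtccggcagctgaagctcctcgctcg
Rab11b, chr17:33760437-33760736, minus strand: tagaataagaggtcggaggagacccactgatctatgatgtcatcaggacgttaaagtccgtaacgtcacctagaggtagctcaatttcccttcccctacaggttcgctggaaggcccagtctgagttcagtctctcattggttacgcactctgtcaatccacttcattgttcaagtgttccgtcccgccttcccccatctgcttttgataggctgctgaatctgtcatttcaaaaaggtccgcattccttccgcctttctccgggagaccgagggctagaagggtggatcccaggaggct

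The remaining 2 motifs were TGACNNNGC, the antioxidant response element bound by Nrf2, found in 8 of the 46 windows (17.4%) and 12.4% of all windows, in Rab24 overlapping the E-box form, and TGATGNAA, a form of the element bound by Atf4, found in 1 window, that of Rab21, and in 3.97% of all.

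Rab15, known from neurons and from recycling endosomes, had 3.78 and 2.98 FPKM in MCK-TD and 0.294 and 0.442 FPKM in Con-TD (log2 change 1.67, SE 0.18, limma adjusted p = 0.0105). It is the 1 gene whose Con-TD mean lay below the selection minimum, so it entered through its MCK-TD level and its direction follows in part from the selection. The fold of its means was 9.18. Rab10, the chief Rab of Glut4 delivery in fat cells, was abundant at 96.6 and 105 FPKM in MCK-TD and 82.4 and 74.3 FPKM in Con-TD. Its groups did not overlap, and it was not called (log2 change 0.36, SE 0.11, limma adjusted p = 0.0765).

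The other genes of this class were not called. Rab35, of fast recycling, averaged 16.1 ± 1.81 FPKM in MCK-TD and 10.8 ± 1.19 FPKM in Con-TD (SD, n = 2 each, limma adjusted p = 0.0526). Rab14, of traffic between the Golgi and endosomes, averaged 31.6 ± 3.80 FPKM in MCK-TD and 24.5 ± 0.543 FPKM in Con-TD (limma adjusted p = 0.102). Of the genes of rapid recycling from early endosomes, Rab4a overlapped between the groups, at 12.9 and 9.25 FPKM in MCK-TD and 10.1 and 10.7 FPKM in Con-TD (limma adjusted p = 0.805). Rab4b did not overlap, at 5.70 and 7.45 FPKM in MCK-TD and 3.53 and 5.58 FPKM in Con-TD, but its lower MCK-TD value lay close to its higher Con-TD value (limma adjusted p = 0.210). The sign of the change of Rab4a differed between scales, from -0.24 to 0.06.

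**Figure D3:**
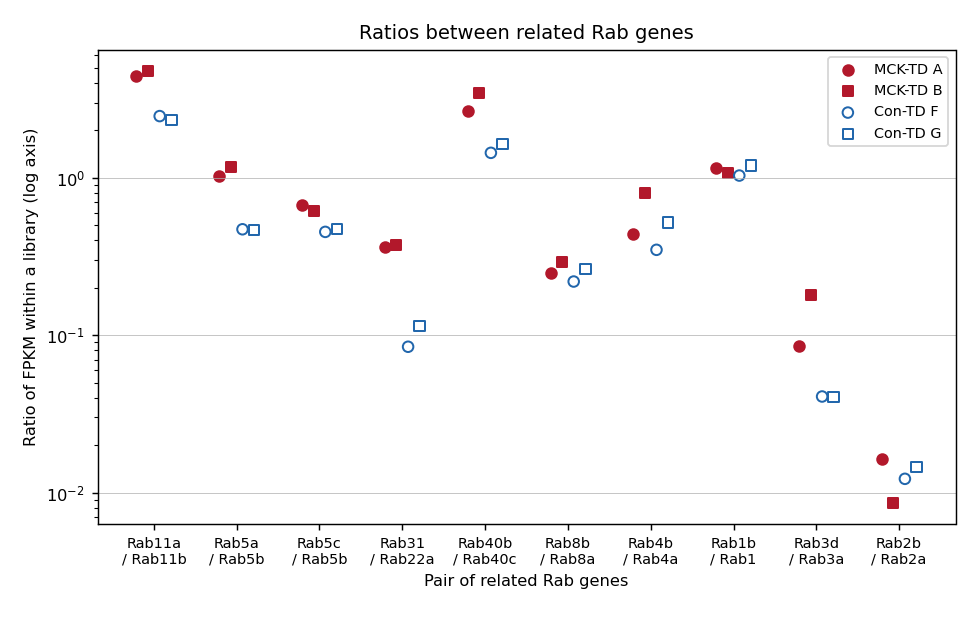
Ratios of FPKM between related Rab genes within each library, on a log axis, with 1 point per library. The ratio of Rab11a to Rab11b is 4.42 and 4.74 in MCK-TD and 2.47 and 2.33 in Con-TD, while that of Rab1b to Rab1 overlaps between the groups.

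Of the 5 Rab genes of the late endosome and lysosome, 1 was called higher (20%, beside 24.3% of all rows) and none lower (beside 6.45%). Their median log2 change was -0.11. Rab7, the Rab that brings late endosomes and autophagosomes to fusion with lysosomes, had 111 and 107 FPKM in MCK-TD and 163 and 129 FPKM in Con-TD. Both MCK-TD values lay below both Con-TD values, but the Con-TD libraries differed, and the gene was not called (log2 change -0.41, SE 0.15, limma adjusted p = 0.108). Its change was negative on all 4 scales, from -0.66 to -0.41, with a lowest limma adjusted p of 0.0507. Within a library, Rab11a was 1.34 and 1.37 times the level of Rab7 in MCK-TD and 0.404 and 0.492 times in Con-TD.

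Rab24, a Rab found on autophagosomes, had 9.92 and 8.96 FPKM in MCK-TD and 11.03 and 11.8 FPKM in Con-TD, lower without overlap (log2 change -0.25, limma adjusted p = 0.150). It was called lower after median of ratios scaling (log2 change -0.49, limma adjusted p = 0.0401) and after quantile normalization (log2 change -0.56, limma adjusted p = 0.0332). Rab9, of the return from late endosomes to the Golgi, had 13.1 and 11.96 FPKM in MCK-TD and 13.7 and 13.4 FPKM in Con-TD, lower without overlap and not called (log2 change -0.11, limma adjusted p = 0.465). Rab12, which acts in the delivery of transferrin receptor to lysosomes, had 79.6 and 83.2 FPKM in MCK-TD and 80.6 and 71.7 FPKM in Con-TD, with overlapping groups (log2 change 0.10, 95% interval -0.20 to 0.39, limma adjusted p = 0.522). Rab7l1, now named Rab29 and known as a partner of the kinase Lrrk2, was the gene called higher, at 4.16 ± 0.124 FPKM in MCK-TD and 2.42 ± 0.107 FPKM in Con-TD (SD, n = 2 each, limma adjusted p = 0.0281), on the deposited scale only.

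The 2 secretory Rab genes had changes of opposite sign, and neither was called. Rab3a, of regulated exocytosis at synapses, had 18.0 and 12.01 FPKM in MCK-TD and 19.5 and 21.4 FPKM in Con-TD (log2 change -0.45, SE 0.21, limma adjusted p = 0.181). Rab3d, of secretory granules, had 1.55 and 2.15 FPKM in MCK-TD and 0.796 and 0.870 FPKM in Con-TD (log2 change 0.63, SE 0.18, limma adjusted p = 0.0670). Neither pair of groups overlapped. The Con-TD mean of Rab3d, 0.833 FPKM, lay below the minimum of the test, so its direction follows in part from the filter. Of the 5 Schwann cell markers, 3 were tested and 2 were called lower (66.7%, beside 6.45% of all rows). The 5 summed to 19.3 and 26.6 FPKM in MCK-TD and to 46.6 and 62.2 FPKM in Con-TD. Both Rab3a and these markers of nerve were below their Con-TD levels, and the part of Schwann cells or nerve in the Rab3a level was not tested.

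None of the 3 Rab genes linked to cilia and to organelle position was called. Rab28 averaged 53.1 ± 0.668 FPKM in MCK-TD and 44.6 ± 2.13 FPKM in Con-TD (SD, n = 2 each, limma adjusted p = 0.122). Rab34 overlapped between the groups, at 1.95 ± 0.431 FPKM in MCK-TD and 1.92 ± 0.193 FPKM in Con-TD (limma adjusted p = 0.974). Rab23, a negative regulator of hedgehog signalling, averaged 0.937 ± 0.202 FPKM in MCK-TD and 1.41 ± 0.0683 FPKM in Con-TD. It was lower without overlap (limma adjusted p = 0.222). Its MCK-TD mean lay below the minimum of the test, so its direction follows in part from the filter.

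Rab20 and both Rab40 genes were called higher on all 4 scales. Rab40b, a Rab with a SOCS box that joins it to a Cullin 5 ubiquitin ligase, had 17.6 and 23.8 FPKM in MCK-TD and 4.79 and 5.21 FPKM in Con-TD, 4.15-fold in the means (log2 change 1.84, SE 0.17, limma adjusted p = 0.00903). Rab40c, its paralog, had 6.65 and 6.91 FPKM in MCK-TD and 3.32 and 3.17 FPKM in Con-TD, 2.09-fold (log2 change 0.87, SE 0.11, limma adjusted p = 0.0122). The ratio of Rab40b to Rab40c was 2.66 and 3.45 in MCK-TD and 1.44 and 1.64 in Con-TD, without overlap. Rab20, of phagosome maturation in macrophages, had 3.10 and 2.69 FPKM in MCK-TD and 0.926 and 1.09 FPKM in Con-TD, 2.87-fold (log2 change 0.95, SE 0.15, limma adjusted p = 0.0181). The summed macrophage markers were higher in the same libraries, with the values given above.

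The make-up of the Rab transcripts by role differed between the groups. The FPKM of the 39 genes summed to 1181 and 1183 in MCK-TD and to 956 and 889 in Con-TD. Genes of recycling and surface delivery made up 32.6% and 31.8% of that sum in MCK-TD and 24.8% and 25.5% in Con-TD. Late endosomal and lysosomal genes made up 18.4% and 18.2% in MCK-TD and 28.3% and 25.6% in Con-TD, and neither of these shares overlapped between the groups. Early endosomal genes took 12.3% and 12.1% in MCK-TD and 10.9% and 10.6% in Con-TD, and Rab20 with the Rab40 genes 2.32% and 2.83% in MCK-TD and 0.945% and 1.07% in Con-TD. The share of the endoplasmic reticulum and Golgi genes overlapped, at 27.97% and 29.1% in MCK-TD and 28.1% and 29.1% in Con-TD. The shares of a library add up to its whole, so a higher share of one role lowers the others, and the most abundant genes, Rab11a and Rab7, weigh most in them. They are given as a description without a test.

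**Figure D4:**
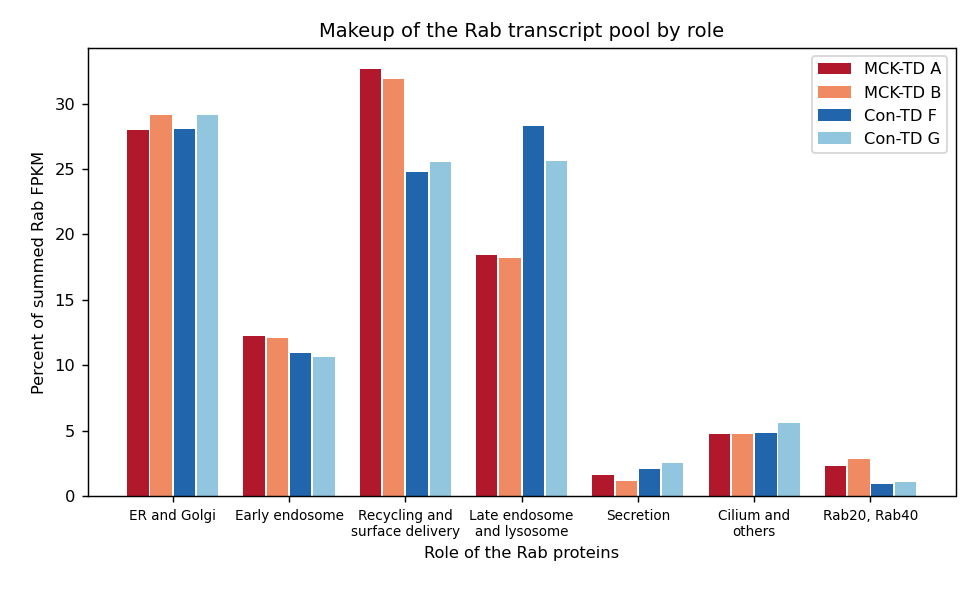
Share of the summed Rab FPKM of a library, in percent, taken by each role, with 1 bar per library. Recycling genes take 32.6% and 31.8% in MCK-TD and 24.8% and 25.5% in Con-TD, and late endosomal genes 18.4% and 18.2% in MCK-TD and 28.3% and 25.6% in Con-TD.

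Proteins that prepare, switch or read Rab proteins were taken in 6 lists chosen for their known roles. In the list of prenylation, escort and extraction, 7 of 8 members were tested, of which 1 rose (14.3%, beside 24.3% of all rows), 1 fell (14.3%, beside 6.45%) and 5 were not called. Gdi2, which extracts GDP-bound Rab proteins from membranes, had 111 FPKM in both MCK-TD libraries and 47.4 and 46.1 FPKM in the Con-TD libraries, 2.38-fold higher (log2 change 1.24, SE 0.09, limma adjusted p = 0.00749). Chm, the escort protein that presents new Rab proteins for prenylation, fell to 4.18 and 3.83 FPKM in MCK-TD, against 6.37 and 6.08 FPKM in Con-TD (log2 change -0.53, SE 0.11, limma adjusted p = 0.0312). Gdi2 and Chm had the same calls after median of ratios scaling. Rabggtb, the catalytic subunit of the Rab prenyltransferase, averaged 47.7 ± 6.87 FPKM in MCK-TD and 32.8 ± 1.53 FPKM in Con-TD (SD, n = 2 each, limma adjusted p = 0.0537), and Rabif, a chaperone of unloaded Rab proteins, 4.73 ± 0.212 FPKM in MCK-TD and 3.44 ± 0.0110 FPKM in Con-TD (limma adjusted p = 0.0688).

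Of 21 exchange factors tested, 6 rose (28.6%, beside 24.3% of all rows), 1 fell (4.76%, beside 6.45%) and 14 were not called, with a median log2 change of 0.46, so the shares called were near those of all rows. Dennd2c, a DENN domain protein, was called higher, at 5.75 and 7.27 FPKM in MCK-TD and 0.590 and 0.817 FPKM in Con-TD (log2 change 2.14, SE 0.17, limma adjusted p = 0.00778). The related Dennd5b and Dennd5a rose by 1.25 and 0.92 on the log2 scale (limma adjusted p = 0.0142 and 0.0134). The Con-TD means of Dennd2c and Dennd5b, 0.704 and 0.469 FPKM, lay below the minimum of the test, so these genes were tested only through their MCK-TD levels and their direction follows in part from the filter. Dennd4b, whose human counterpart activates Rab10, was the member that fell, to 9.77 and 8.09 FPKM in MCK-TD, against 17.8 and 22.03 FPKM in Con-TD (log2 change -1.07, SE 0.16, limma adjusted p = 0.0169). After median of ratios scaling 3 exchange factors were called higher and 2 lower (14.3% and 9.52%, beside 14.7% and 12.1% of all rows).

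Of 25 GTPase-activating proteins tested, 9 rose (36%, beside 24.3% of all rows), 1 fell (4%, beside 6.45%) and 15 were not called, with a median log2 change of 0.36. Evi5, a TBC domain protein that binds Rab11, had 11.4 and 14.3 FPKM in MCK-TD and 2.38 and 2.25 FPKM in Con-TD, 5.54-fold higher (log2 change 2.05, SE 0.14, limma adjusted p = 0.00738). Tbc1d1, the regulator of the Rab proteins of Glut4 vesicles that muscle contraction phosphorylates, had 39.02 and 48.2 FPKM in MCK-TD and 12.3 and 14.3 FPKM in Con-TD, 3.28-fold higher (log2 change 1.64, SE 0.15, limma adjusted p = 0.00903). Rab3gap1, which inactivates Rab3 and activates Rab18, and Tbc1d20, which inactivates Rab1, rose by 1.22 and 1.13 on the log2 scale (limma adjusted p = 0.0130 and 0.00886). The member that fell, named after its values were seen, was Tbc1d16, at 2.86 and 2.43 FPKM in MCK-TD and 7.74 and 5.58 FPKM in Con-TD. After median of ratios scaling 8 were called higher and 3 lower (32% and 12%, beside 14.7% and 12.1% of all rows).

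Among endosomal effectors 30 were tested, of which 6 rose (20%, beside 24.3% of all rows), 1 fell (3.33%, beside 6.45%) and 23 were not called, with a median log2 change of 0.24, close to that of all rows. Rab11fip5, an adaptor of Rab11, had 21.4 and 16.95 FPKM in MCK-TD and 3.43 and 4.30 FPKM in Con-TD, 4.96-fold higher (log2 change 2.05, SE 0.17, limma adjusted p = 0.00800). The Rab7 effectors Plekhm1, which ties Rab7 to the lysosomal fusion machinery, and Osbpl1a, a sterol sensor, rose by 1.44 and 1.32 on the log2 scale (limma adjusted p = 0.00743 and 0.00738). Osbpl1a had 42.3 and 41.6 FPKM in MCK-TD and 16.2 and 16.3 FPKM in Con-TD. Micall1, of tubular recycling endosomes, rose by 1.18 (limma adjusted p = 0.0106). Fyco1, a Rab7 effector that carries autophagosomes along microtubules, was the member that fell (named after its values were seen), at 19.95 and 21.3 FPKM in MCK-TD and 27.3 and 27.9 FPKM in Con-TD. After median of ratios scaling 5 were called higher and 5 lower (16.7% each, beside 14.7% and 12.1% of all rows).

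Of the Golgi and secretory effectors 9 were tested, of which 2 rose (22.2%, beside 24.3% of all rows), none fell and 7 were not called, with a median log2 change of 0.28. The motor Myo5a had 7.30 and 9.78 FPKM in MCK-TD and 1.53 and 0.997 FPKM in Con-TD (log2 change 2.07, SE 0.21, limma adjusted p = 0.00971). Uso1, a tether that binds Rab1, had 31.1 and 39.9 FPKM in MCK-TD and 20.1 and 20.4 FPKM in Con-TD (log2 change 0.77, SE 0.15, limma adjusted p = 0.0283), and was not called after median of ratios scaling (limma adjusted p = 0.0650). Golga2, a Golgi matrix protein that binds Rab1, and Bicd2, the dynein adaptor of Rab6, were not called (limma adjusted p = 0.0752 and 0.133).

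The 8 members of the Glut4 vesicle list, the cargo that several of these Rab proteins carry in muscle, included 2 called higher (25%, beside 24.3% of all rows), 1 called lower (12.5%, beside 6.45%) and 5 not called, with a median log2 change of 0.12. Slc2a4, which encodes Glut4, fell to 118 and 83.8 FPKM in MCK-TD, against 219 and 212 FPKM in Con-TD (log2 change -1.11, SE 0.19, limma adjusted p = 0.0221). Muscle fibre markers were lower in the same libraries, and their part in the level of Slc2a4 was not tested. Lnpep, the aminopeptidase that travels with Glut4, had 3.99 and 4.70 FPKM in MCK-TD and 1.104 and 0.760 FPKM in Con-TD (log2 change 1.47, SE 0.17, limma adjusted p = 0.0112). Its Con-TD mean of 0.932 FPKM lay below the minimum of the test, so it too was tested through its MCK-TD level. Snap23, a SNARE at the surface where these vesicles fuse, rose by 0.44 on the log2 scale (limma adjusted p = 0.0384, and 0.236 after median of ratios scaling), and its partner Stx4a was not called (limma adjusted p = 0.201).

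**Figure D5:**
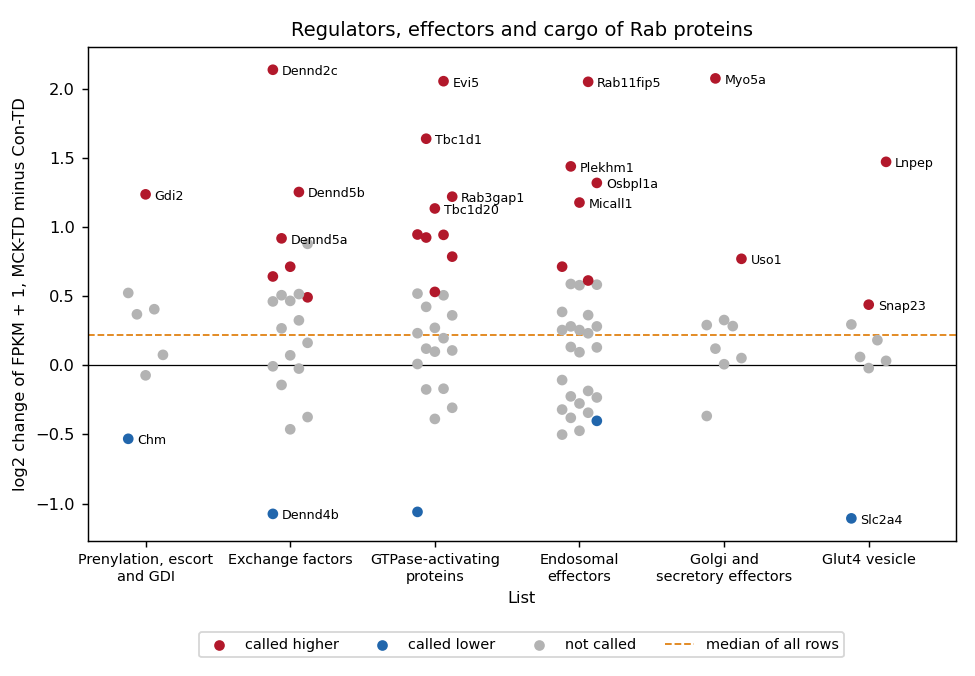
Log2 change of FPKM + 1, MCK-TD minus Con-TD, of each tested member of the 6 lists of Rab regulators, effectors and cargo, coloured by its call in limma's test, with the all-row median of 0.22 as a dashed line. Dennd2c, which was tested only through its MCK-TD level, stands at 2.14, Evi5 at 2.05 and Slc2a4, the lowest, at -1.11.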

How the data were processed

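Transcript abundance was used as the FPKM values that the authors deposited, 1 value per gene and library. Per the submitters' processing notes STAR, Cufflinks and mm9 were used, with neither versions nor roles stated. For the annotation, the strand setting and reads shared with pseudogenes or paralogs, the sources used here give nothing, so levels of close paralogs are uncertain. Values were taken as log2(FPKM + 1), which understates changes of low genes, for rows with a mean of at least 1 FPKM. Limma 3.58.1 under R 4.3.3 fitted the group alone (2 residual degrees of freedom), with an intensity trend, two-sided, with Benjamini-Hochberg adjustment over all 12474 rows and a call under 0.05. The fit was run on simulated data with independent noise of the same spread in every row. The deposited values need not vary in that way, so the simulation does not measure the error of the calls given here.

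The Rab genes and all lists were chosen with earlier results of these data known. Rab7l1 was placed by its newer name, Rab29, after the table was read. Full values were planned for up to 12 called genes with the largest rise and up to 8 with the largest fall. They were also planned for genes with a mean of at least 50 FPKM and for paralogs of the genes so named. Up to 4 genes were to be named from each list. The library values of Rab24, Rab9, Rab3a, Rab3d, Rab4a and Rab4b, and the names Tbc1d16 and Fyco1, go beyond that plan. Proteins were not searched here. Alternatives were other filters, a pseudocount of 0.1, 3 scalings, no trend and leaving out each library.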

Additional observations from a re-analysis of the deposited data

How the results depend on the processing

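Counts and medians are given against their values on the deposited scale, 3033 rows and 18 Rab genes higher, 804 rows and 0 Rab genes lower, and a median Rab change of 0.47. Without a filter on low FPKM, which tests more rows, 1668 rows and 9 Rab genes were higher and 375 rows lower, of which 1234 higher and 278 lower were among the 12474 rows. After median of ratios scaling 1833 rows and 9 Rab genes were higher, 1510 rows and 1 Rab gene lower, and the median was 0.29. After quantile normalization the counts were 1588 rows and 8 Rab genes higher, 1667 rows and 1 Rab gene lower, with a median of 0.22. Scaling without mitochondrial, small RNA and the 20 most abundant other rows gave 11 Rab genes higher and a median of 0.39. The median was 0.40 with a minimum of 5 FPKM, which removes the lower Rab genes, and 0.57 with a pseudocount of 0.1. Leaving out 1 library gave 12 to 154 rows higher, 8 to 68 rows lower, 0 Rab genes called and medians of 0.43 to 0.46, with 1 residual degree of freedom and the spread taken from the other group alone.

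The sign of 5 uncalled genes turned with the scale. Under median of ratios, quantile and reduced-sum scaling the log2 change was -0.16, -0.25 and -0.089 for Rab34, -0.17, -0.24 and -0.074 for Rab4a, and -0.16, -0.086 and -0.051 for Rab12. It was -0.0051 and -0.0010 for Rab28 under the first 2, and -0.012 for Rab11b under quantile normalization. With 1 library left out it ranged from -0.17 to 0.024 for Rab5b, -0.14 to 0.16 for Rab34, -0.16 to 0.28 for Rab4a, -0.27 to 0.083 for Rab2b and -0.15 to 0.14 for Rab2a. The cause was not tested. No paired analysis was possible because the libraries carry letters and no shared replicate numbers. The absolute depth is unknown, so no counting interval can be given, and with 2 libraries a group the error of each change is itself poorly known.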
